A study of Mus musculus and Acomys cahirinus with 16 samples.

Results

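The 10 genes described here mark the cells that line blood and lymphatic vessels. Of these, 5 are expressed by resting blood endothelium (Pecam1, Cdh5, Kdr, Flt1 and Tek), 3 are tied to an activated vessel wall (Vwf, Sele and Selp), and 2 mark lymphatic endothelium (Prox1 and Flt4). They were chosen by symbol, and each was found once among the 56980 genes of the mouse table and once among the 19818 genes of the spiny mouse table. All 10 passed the filter on low counts in both species. Skin came from laboratory mice, Mus musculus, and from African spiny mice, Acomys cahirinus, with 4 untreated samples and 4 given DMBA/TPA in each species, 16 in all. Polyadenylated RNA was sequenced. DMBA (dimethylbenzanthracene) is a mutagen and TPA is a phorbol ester that drives epidermal growth and inflammation. Both are used in the classical skin tumour protocol. Genes of keratinocytes were abundant in every sample, at a summed 7262 to 28078 CPM in mouse and 13420 to 29374 CPM in spiny mouse (6 genes). The labels name neither strain, age, sex, dose, time after treatment nor whether a sample held tumour. The series' own design field speaks of gamma-irradiated fibroblasts, whereas its title and every sample label speak of skin, and the grouping follows the labels.

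Blood vessels grow and are kept alive by VEGF-A acting on its main signalling receptor VEGFR2, the product of Kdr, while VEGFR1, the product of Flt1, binds the same ligand tightly and signals weakly. Angiopoietins act through Tie2, the product of Tek, and stabilise the vessel wall. When endothelium is activated by inflammation it displays E-selectin (Sele) and P-selectin (Selp), which catch passing leukocytes, and releases von Willebrand factor (Vwf), which holds platelets. Lymphatic endothelium owes its identity to the transcription factor PROX1 and grows in response to VEGF-C through VEGFR3, the product of Flt4.

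The mouse promoters of 3 members are shown because these genes differ most plainly in the responses described next: Kdr fell in both species, Sele rose in spiny mouse, and Selp, the other selectin, passed the test in neither. Each window runs from 250 bases before to 50 bases after the start site, 5′ to 3′ along the gene, from RefSeq on GRCm38.p6. They lie at chr1:164047984-164048283 (Sele, plus strand), chr1:164115014-164115313 (Selp, plus strand) and chr5:75978406-75978705 (Kdr, minus strand). Capitals mark matches, on either strand, to an AP-1 motif (TGANTCA) or an ETS motif (CNGGAA); AP-1 is the transcription factor complex that phorbol esters act through, and ETS factors bind many endothelial promoters.
Sele: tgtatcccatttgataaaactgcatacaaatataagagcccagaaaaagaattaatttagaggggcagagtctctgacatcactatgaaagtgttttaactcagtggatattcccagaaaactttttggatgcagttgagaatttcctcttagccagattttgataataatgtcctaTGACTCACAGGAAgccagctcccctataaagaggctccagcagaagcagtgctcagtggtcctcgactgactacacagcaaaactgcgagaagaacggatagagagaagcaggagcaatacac
Selp: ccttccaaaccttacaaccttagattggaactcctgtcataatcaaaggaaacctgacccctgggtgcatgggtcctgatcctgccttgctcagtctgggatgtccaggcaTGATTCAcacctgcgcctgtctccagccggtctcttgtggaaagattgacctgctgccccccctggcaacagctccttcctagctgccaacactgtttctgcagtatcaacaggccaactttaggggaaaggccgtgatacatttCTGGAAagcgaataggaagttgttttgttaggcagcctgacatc
Kdr: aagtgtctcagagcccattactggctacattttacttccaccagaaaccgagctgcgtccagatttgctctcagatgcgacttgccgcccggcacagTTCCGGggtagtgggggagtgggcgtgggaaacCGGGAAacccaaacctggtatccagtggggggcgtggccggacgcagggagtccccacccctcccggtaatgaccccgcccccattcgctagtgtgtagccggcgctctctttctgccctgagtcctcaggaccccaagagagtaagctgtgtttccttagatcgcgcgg
RefSeq windows were matched for 7 of the 10 members, with 8 windows because Prox1 has 2; Pecam1, Cdh5 and Vwf were not matched. The AP-1 motif was found in the windows of Sele and Selp and in none of the windows of Kdr, Tek, Flt1, Flt4 and Prox1, against 7.81% of all 32851 mouse windows of the same 300 bases. In Sele it begins 73 bases before the start site and an ETS match follows directly at 66 bases before, with no shared base. In Selp the AP-1 match begins 139 bases before the start. The ETS motif is common, in 61.7% of all windows, and all 8 member windows hold at least 1 match. An NF-kB motif (GGG, any 3 bases, then TTCC, either strand) occurs in 5.56% of windows and in none of the 8. Other spellings of NF-kB sites were not searched. A match describes letters only, and spiny mouse sequence was not used here.

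Of the 10 members, those that changed in mouse skin after DMBA/TPA all fell, and in spiny mouse skin 3 rose and 2 fell. In mouse, Kdr, Tek, Vwf and Prox1 were lower, by between 1.51-fold and 2.0-fold, none was higher and 6 did not pass the test. In spiny mouse, Sele (3.02-fold), Flt4 (1.75-fold) and Vwf (1.46-fold) were higher, Kdr (2.13-fold) and Cdh5 (1.26-fold) were lower, and 5 did not pass. A call is an adjusted p under 0.05 in the quasi-likelihood test of edgeR, adjusted over all genes tested. Most of the transcriptome moved: 61.2% of 19740 mouse genes were called (25.9% higher, 35.3% lower), and 55.1% of 14833 spiny mouse genes were called (28.2% higher, 26.9% lower). The members' share called, 4 of 10 in mouse and 5 of 10 in spiny mouse, lay below both. With upper-quartile factors or library size alone 7 members were called in mouse, all lower, with Pecam1, Cdh5 and Sele added. Their median log2 fold change was -0.30 in mouse, against -0.15 over all genes tested, and 0.20 in spiny mouse, against -0.01. Without untreated mouse replicate 2 the mouse median was -0.18, with 1 member higher and 4 lower, against -0.05 over all genes. In whole skin, fewer endothelial cells and less RNA per cell cannot be told apart.

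**Figure D1:**
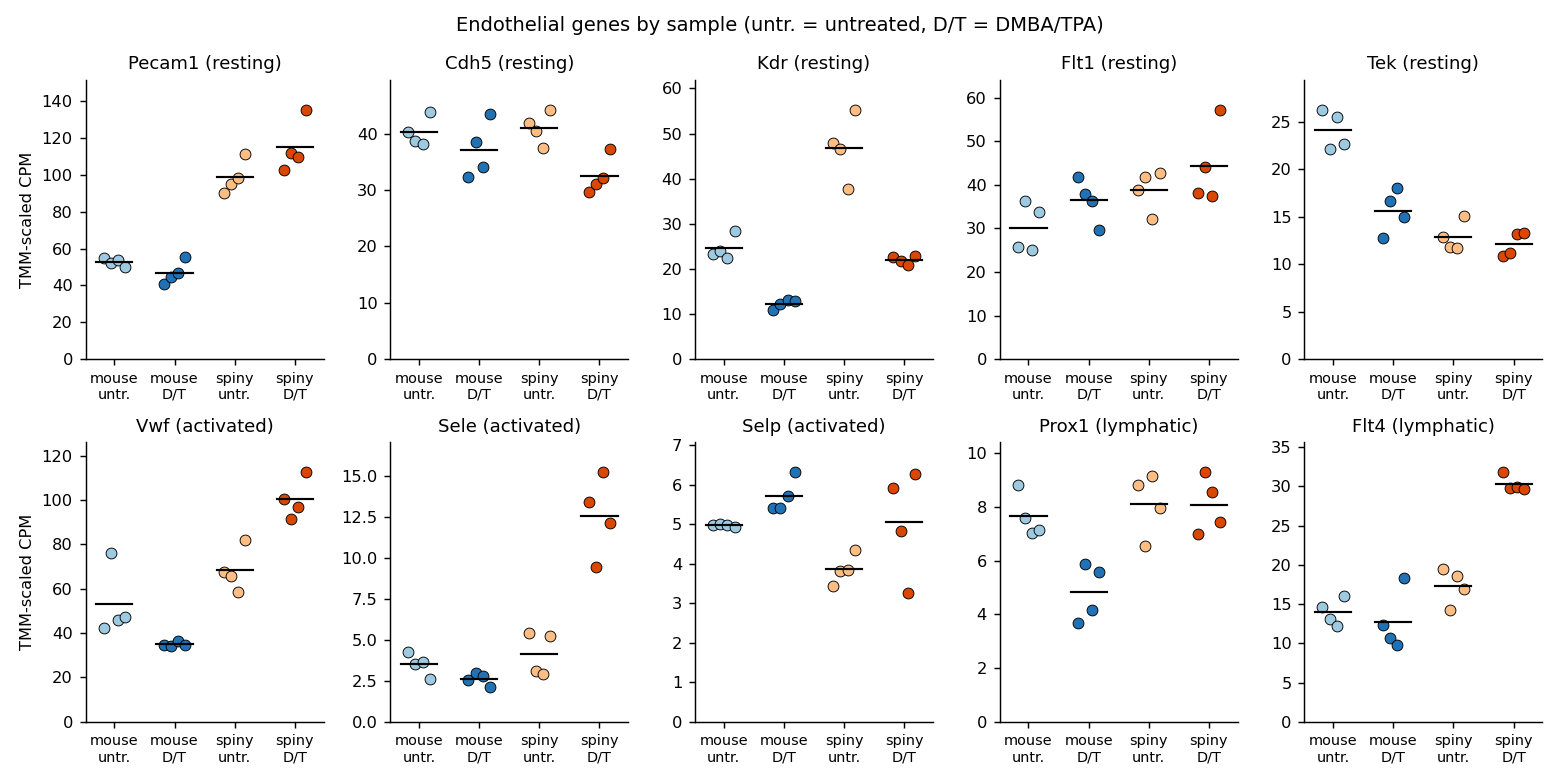
Level of each gene in every sample, as TMM-scaled CPM, the count per library scaled to a common total (linear axes from 0); each point is a sample and each bar the mean of 4. Kdr is lower in treated samples of both species, while Sele, Vwf and Flt4 are higher in treated samples of spiny mouse and not of mouse.

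Kdr was the member that moved alike in both species. In untreated mouse skin its levels were 23.4, 24, 22.4 and 28.5 CPM (TMM-scaled), and after DMBA/TPA 10.9, 12.2, 13.2 and 12.8 CPM. In spiny mouse the untreated levels were 47.8, 46.6, 37.8 and 55.3 CPM and the treated ones 22.6, 21.8, 20.8 and 22.8 CPM. Every treated sample lay below every untreated sample of its species. The log2 fold change was -1.0 ± 0.12 (SE) in mouse (edgeR adjusted p = 0.00012) and -1.09 ± 0.11 in spiny mouse (edgeR adjusted p = 7.2e-05), with 4 samples in each group. The 2 responses differed by -0.09, with a 95% interval from -0.40 to 0.21 (edgeR adjusted p = 0.65). The gene lies on chromosome 5 of GRCm39 from 76093487 to 76139118, minus strand, and on scaffold_16 of the AcoCah2 assembly from 39653660 to 39699905.

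Flt1, the high-affinity VEGF receptor, did not follow Kdr. Mouse levels were 25.7, 36.2, 25.1 and 33.7 CPM untreated and 41.9, 38, 36.3 and 29.6 CPM treated, so the groups overlapped. Its log2 fold change was 0.27 in mouse (95% interval -0.03 to 0.58) and 0.19 in spiny mouse (-0.10 to 0.48), with edgeR adjusted p-values of 0.15 and 0.31. In mouse it passed the test, as a rise, in 4 of 16 alternatives: without untreated replicate 2 (0.46, edgeR adjusted p = 0.011), with limma-voom (0.39, adjusted p = 0.011), with no low-count filter (0.42, edgeR adjusted p = 0.049) and with libraries scaled by other endothelial genes (0.73, edgeR adjusted p = 0.016).

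Tek, the angiopoietin receptor, fell in mouse and not detectably in spiny mouse. Mouse levels were 26.3, 22.1, 25.5 and 22.7 CPM untreated and 12.8, 16.7, 18 and 15 CPM treated, with no overlap, a log2 fold change of -0.63 ± 0.13 (edgeR adjusted p = 0.0026). In spiny mouse they were 12.9, 11.8, 11.7 and 15.1 CPM untreated and 10.9, 11.2, 13.2 and 13.3 CPM treated, a log2 fold change of -0.08 (95% interval -0.31 to 0.14). The difference between the species was itself called, at 0.55 ± 0.17 on the log2 scale (edgeR adjusted p = 0.016).

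Cdh5 encodes VE-cadherin, the adhesive molecule of endothelial junctions, and Pecam1 encodes CD31, also at those junctions and on platelets and leukocytes. Cdh5 fell in spiny mouse, from 41.9, 40.5, 37.4 and 44.3 CPM to 29.6, 31.1, 32.2 and 37.3 CPM, with no overlap and a log2 fold change of -0.33 ± 0.09 (edgeR adjusted p = 0.012). In mouse it ranged from 38.2 to 43.8 CPM untreated and from 32.3 to 43.5 CPM treated, a log2 fold change of -0.12 (95% interval -0.33 to 0.10). Pecam1 was called in neither species, with log2 fold changes of -0.17 in mouse and 0.22 in spiny mouse. The Pecam1 difference between species, 0.39 ± 0.15, passed the test narrowly (edgeR adjusted p = 0.045) and was lost on leaving out any 1 of 12 of the 16 libraries.

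Vwf, the platelet-holding glycoprotein of the vessel wall, moved in opposite directions. Mouse levels were 42.2, 76.3, 46.1 and 47.4 CPM untreated and 34.5, 34.2, 36.6 and 34.6 CPM treated. Spiny mouse levels were 67.7, 65.8, 58.6 and 82.0 CPM untreated and 100.4, 91.5, 96.7 and 112 CPM treated. In mouse all treated samples lay below all untreated samples, and in spiny mouse all lay above. The log2 fold change was -0.60 ± 0.18 in mouse (edgeR adjusted p = 0.016) and 0.55 ± 0.11 in spiny mouse (edgeR adjusted p = 0.0021), and the difference was 1.15 ± 0.22 (edgeR adjusted p = 0.00056). Untreated mouse replicate 2, at 76.3 CPM, carried much of the mouse fall: without it the log2 fold change was -0.28, still called. Without treated mouse replicate 2 it was -0.50 and no longer called (edgeR adjusted p = 0.085). That untreated library also stood apart in inner root sheath keratins of the growing hair follicle (Krt25, Krt27, Krt28, Krt71 and Krt73), which summed to 1586 CPM there and to between 3.05 and 25.8 CPM in the other 3 untreated mouse samples; all 5 were called higher in treated mouse skin, at 17212 to 18622 CPM, and their part in the endothelial values was not tested. Platelets also carry Vwf and Selp, and of 9 platelet and megakaryocyte genes 4 passed the filter in each species, with 1 higher and 1 lower in each. Their summed level was 21.5 to 52.5 CPM untreated and 26.0 to 34.3 CPM treated in mouse, and 40.7 to 47.2 and 41.8 to 58.9 CPM in spiny mouse, overlapping in both.

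Sele, which encodes E-selectin, the adhesion molecule made by inflamed endothelium, had the largest difference between the species among the 10 members. In spiny mouse its levels were 5.38, 3.09, 2.89 and 5.21 CPM untreated and 13.4, 9.43, 15.2 and 12.1 CPM treated. In mouse they were 4.23, 3.51, 3.66 and 2.60 CPM untreated and 2.52, 2.94, 2.80 and 2.12 CPM treated. All 4 treated spiny mouse samples exceeded all untreated ones, whereas the mouse groups overlapped. The log2 fold change was 1.60 ± 0.24 in spiny mouse (edgeR adjusted p = 0.00051) and -0.43 ± 0.21 in mouse (edgeR adjusted p = 0.10). The difference of 2.03 ± 0.32 (edgeR adjusted p = 0.00012) was called in each of the 24 alternatives, between 1.61 and 2.26. The gene is scarce, with 48 to 104 counts a library in mouse and 78 to 414 in spiny mouse. It lies on chromosome 1 from 163875773 to 163885246 in GRCm39, plus strand and on scaffold_5 in AcoCah2, which also holds Selp.

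Selp, which encodes the selectin stored in endothelial and platelet granules, did not follow Sele. Spiny mouse levels were 3.44, 3.81, 3.85 and 4.34 CPM untreated and 5.91, 4.82, 3.26 and 6.26 CPM treated, a log2 fold change of 0.39 (95% interval -0.01 to 0.79, edgeR adjusted p = 0.13). Treated replicate 3 was the low sample, and without it the log2 fold change was 0.56 and called (edgeR adjusted p = 0.015). Mouse levels were 4.97, 5, 4.98 and 4.92 CPM untreated and 5.41, 5.41, 5.71 and 6.31 CPM treated. These mouse groups did not overlap, yet the log2 fold change of 0.20 was not called (edgeR adjusted p = 0.21). Groups without overlap were common, at 58.6% of mouse genes tested and 50.9% of spiny mouse genes; among the members they were 5 of 10 in each species.

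Flt4, the VEGF-C receptor of lymphatic endothelium, rose in spiny mouse. Its levels there were 19.5, 14.2, 18.6 and 16.9 CPM untreated and 31.8, 29.8, 29.9 and 29.7 CPM treated. Mouse levels were 14.6, 13.1, 12.2 and 16 CPM untreated and 12.3, 10.7, 9.75 and 18.3 CPM treated. The spiny mouse groups did not overlap, while in mouse treated replicate 4 lay above and 2 treated samples below all untreated ones. The log2 fold change was 0.81 ± 0.10 in spiny mouse (edgeR adjusted p = 0.00018) and -0.13 (95% interval -0.52 to 0.26) in mouse, and the difference of 0.94 ± 0.23 was called (edgeR adjusted p = 0.0038).

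Prox1, the lymphatic identity factor, fell in mouse, from 8.83, 7.59, 7.03 and 7.15 CPM to 3.68, 5.89, 4.18 and 5.57 CPM. The groups did not overlap and the log2 fold change was -0.66 ± 0.19 (edgeR adjusted p = 0.013). In spiny mouse its levels were 8.81, 6.54, 9.16 and 7.95 CPM untreated and 7.01, 9.29, 8.56 and 7.45 CPM treated, a log2 fold change of -0.01 (95% interval -0.28 to 0.27). The difference of 0.65 ± 0.23 was called (edgeR adjusted p = 0.028) and was lost on leaving out any 1 of 7 of the 16 libraries. Prox1 is also expressed in skeletal muscle, and 9 of 9 muscle genes fell in mouse and 8 of 8 tested in spiny mouse. Their summed level went from 10636 to 14824 CPM down to 2415 to 3275 CPM in mouse, and from 10672 to 13460 CPM down to 3545 to 7327 CPM in spiny mouse. The part of muscle in the Prox1 values was not tested. Of the 2 lymphatic members, Prox1 alone passed the test in mouse and Flt4 alone in spiny mouse. The 2 genes were not tested against each other.

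**Figure D2:**
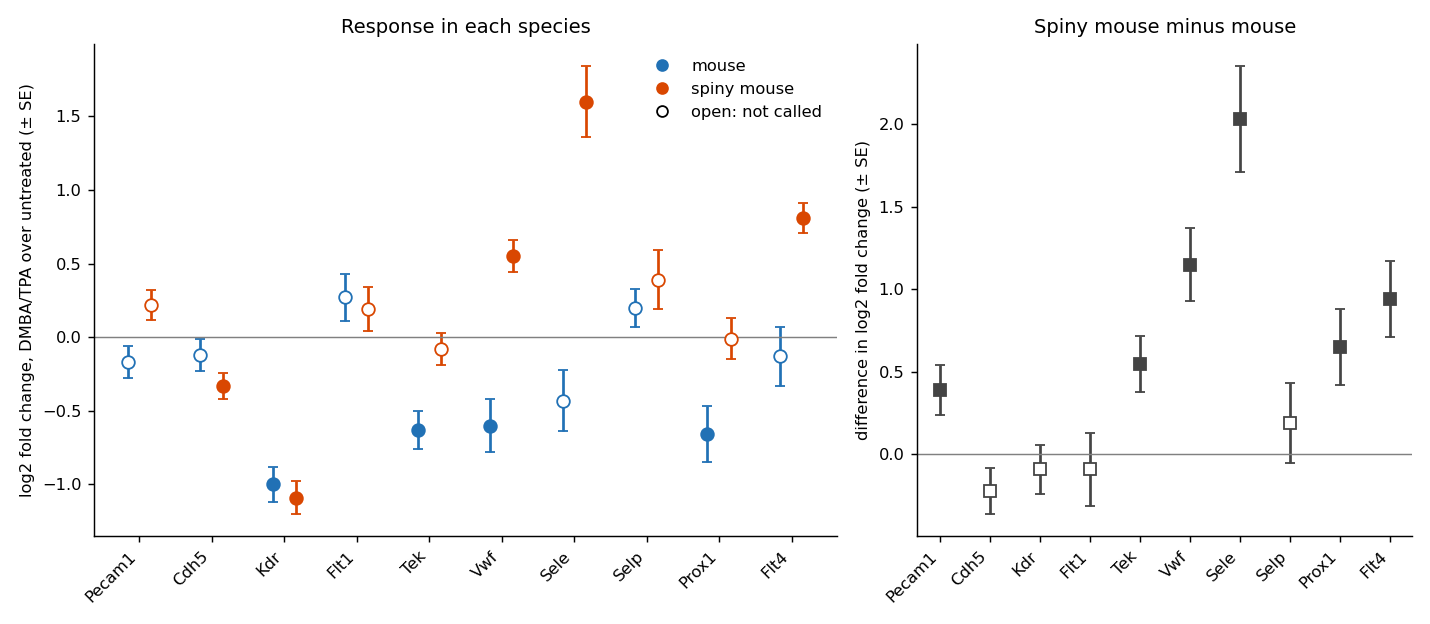
Left, log2 fold change of DMBA/TPA over untreated for each gene in mouse (blue) and spiny mouse (orange), with SE; right, the spiny mouse value minus the mouse value, with SE. Filled symbols passed the test; Kdr is near -1 in both species and Sele has the highest difference, 2.03.

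The response differed between the species for 6 of the 10 members, and in all 6 the log2 fold change was larger in spiny mouse: Pecam1, Tek, Vwf, Sele, Prox1 and Flt4. The difference is the species-by-treatment term, tested over 13656 genes found once in each table, of which 46.1% were called, 21.4% larger and 24.7% smaller in spiny mouse. The members' median difference was 0.47, against -0.03 over all genes tested. The called differences joined unlike responses: Tek and Prox1 fell in mouse with no call in spiny mouse, Sele and Flt4 rose in spiny mouse with no call in mouse, Vwf was called both ways, and Pecam1 in neither. Without untreated mouse replicate 2, 4 of the 10 differences were called.

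Genes of other cell types in the skin were counted in the same way. Of 7 genes of pericytes and smooth muscle, which wrap the vessels, none rose and 3 fell in mouse, and none rose and 5 fell in spiny mouse. Of 4 adipocyte genes 2 fell in mouse and 3 in spiny mouse, and of 5 fibroblast genes 2 fell in each species and 1 rose in spiny mouse. Over the whole transcriptome the share called was 61.2% in mouse and 55.1% in spiny mouse. The mural, adipocyte and fibroblast genes each had a smaller share called than that in mouse, and a larger share in spiny mouse. Without untreated mouse replicate 2, the mouse counts were 2 higher and 3 lower for the mural genes, 4 of 4 lower for the adipocyte genes and 3 of 5 lower for the fibroblast genes. Adipocyte genes summed to 103.5 CPM in that library and to 388 to 530.4 CPM in the other 3 untreated mouse samples. The summed mural level overlapped between groups in mouse (433 to 568 CPM untreated, 450 to 480 CPM treated), while in spiny mouse it went from between 921 and 1077 CPM to between 746 and 883 CPM. The part of these cells in the members' values was not tested.

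Scaling the libraries by 16 other endothelial genes in place of all genes gives each member relative to those genes. On that scale Kdr still fell in mouse, by 0.57 on the log2 scale, while Flt1 (0.73) and Selp (0.63) were called higher and Tek, Vwf and Prox1 were no longer called. The members were then 2 higher and 1 lower in mouse, with a median of 0.14, and in spiny mouse the same 5 members were called. The called differences were then Sele (1.61) and Vwf (0.74), larger in spiny mouse, and Cdh5 (-0.63) and Kdr (-0.49), smaller. The Sele and Vwf differences were thus called on both scales, and those of Pecam1, Tek, Prox1 and Flt4 only on the scale of all genes.

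Per kilobase of deposited gene length, the members spanned a 10.5-fold range in untreated mouse skin and a 32.1-fold range in untreated spiny mouse skin. In untreated mouse skin the order ran from Cdh5 (9.58 ± 0.61 CPM per kb, mean ± SD, n = 4) through Pecam1 (8.47 ± 0.37), Tek (5.12 ± 0.44), Vwf (3.30 ± 0.98), Kdr (2.72 ± 0.30), Flt1 (2.23 ± 0.42), Flt4 (1.70 ± 0.20), Sele (1.19 ± 0.23) and Selp (1.13 ± 0.01) to Prox1 (0.912 ± 0.098). Neighbours from Tek to Flt4, and Sele and Selp, overlapped in their samples. In untreated spiny mouse skin Pecam1 led with 29.8 ± 2.8, followed by Cdh5 (10.0 ± 0.7), Vwf (7.72 ± 1.10) and Kdr (5.97 ± 0.91), and Prox1 was again lowest at 0.927 ± 0.133; Cdh5 overlapped with Vwf and Vwf with Kdr, Flt4 (2.98), Flt1 (2.93) and Tek (2.62) overlapped, as did Selp (1.16), Sele (1.15) and Prox1. After DMBA/TPA, Sele moved from place 9 to place 5 in spiny mouse, at 3.47 ± 0.67, and Kdr from place 4 to place 7, at 2.80 ± 0.12. In treated mouse skin Kdr was at place 7 (1.36 ± 0.11), from place 5, and Sele at place 9 (0.882 ± 0.124). Levels of the 2 species come from separate tables with separate gene models and were not tested against each other.

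**Figure D3:**
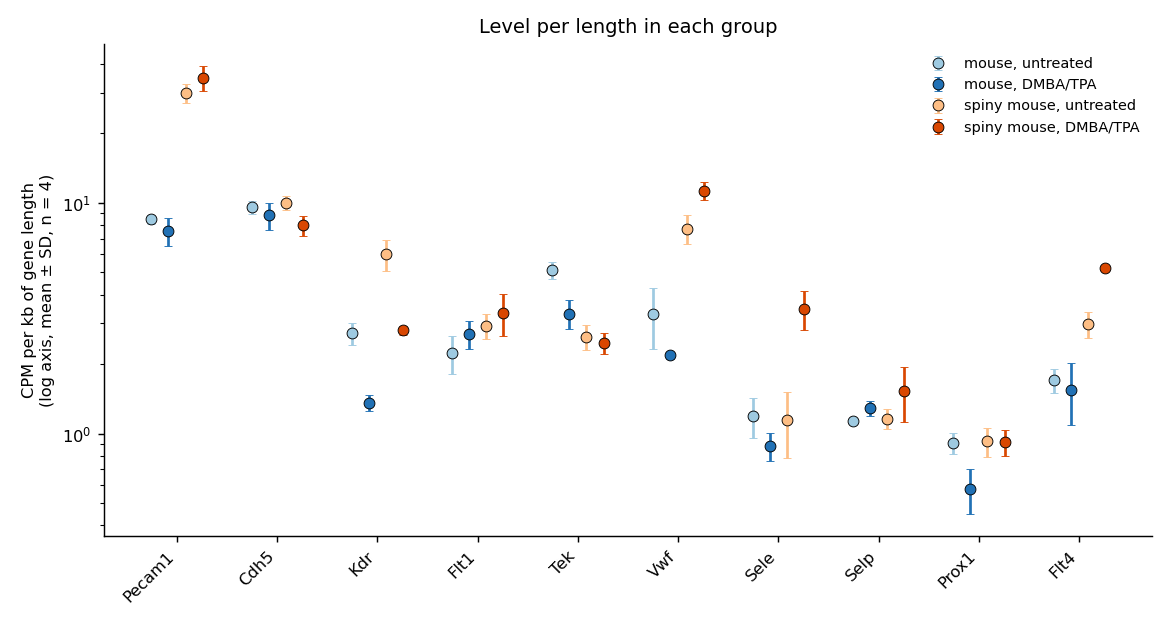
Mean level per kilobase of gene length (log axis) with SD over 4 samples, for each gene in the 4 groups. Prox1 is the lowest in every group, and Sele stands at 3.47 CPM per kb in treated spiny mouse skin against 1.15 in untreated.

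The 6 lists of related vascular genes, 53 genes in all, were read beside the members. The count of each list stands beside the share of all genes tested. That share was 25.9% higher and 35.3% lower in mouse, and 28.2% and 26.9% in spiny mouse. For the species difference, 21.4% of all genes were called larger in spiny mouse and 24.7% smaller. Over the 6 lists, 8 genes were higher and 20 lower of 52 tested in mouse (median log2 fold change -0.35), 13 were higher and 10 lower of 51 in spiny mouse (median 0.02), and the difference was larger in spiny mouse for 22 and smaller for 6 of 50. The balance depends on the scale: with libraries scaled by the 16 surface and junction genes, which are among the 52, 15 were higher and 11 lower in mouse (median 0.08), and the difference was larger for 9 and smaller for 9. Without untreated mouse replicate 2, 10 were higher and 21 lower in mouse. The further endothelial surface and junction genes were 1 higher and 8 lower of 16 in mouse (median -0.45), and 3 higher and 2 lower of 16 in spiny mouse (median -0.05). In mouse the fall was led by Egfl7, a secreted endothelial factor (log2 fold change -1.03, edgeR adjusted p = 0.0023), which fell as much in spiny mouse (-1.05, edgeR adjusted p = 0.00023). Plvap, the diaphragm protein of fenestrated capillaries, rose in mouse by 0.36 on the log2 scale (edgeR adjusted p = 0.023) and in spiny mouse by 0.53 (edgeR adjusted p = 0.0065). Eng, a TGF-beta co-receptor, rose by 0.66 in spiny mouse (edgeR adjusted p = 0.0014) and was not called in mouse (0.18). Without untreated mouse replicate 2 this list was 2 higher and 8 lower in mouse.

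The genes of leukocyte capture at the vessel wall mostly rose in spiny mouse. The list holds genes of leukocytes as well as of endothelium, and both kinds were among those that rose. Of the 5 tested there, 4 rose and none fell (median 0.85), beside 28.2% of all genes called higher. In mouse none of 6 rose and 3 fell (median -0.61), beside 35.3% of all genes called lower. The difference was larger in spiny mouse for 4 of 5, beside 21.4% of all genes. Scaled by the 16 other endothelial genes, 2 rose and 2 fell in mouse. Icam1, an adhesion molecule that leukocyte integrins bind, went from 25.7, 34.7, 31.9 and 31.8 CPM to 61.6, 68.2, 60.6 and 86.4 CPM in spiny mouse, a log2 fold change of 1.16 ± 0.13 with no overlap (edgeR adjusted p = 0.00013). Its mouse levels were 23.8, 18.8, 24.1 and 25.2 CPM untreated and 25.2, 21.9, 25 and 28.6 CPM treated, which overlapped, with a log2 fold change of 0.13 and no call. Ackr1, the chemokine-binding receptor of venules, fell in mouse from between 7.28 and 11.6 CPM to between 3.41 and 4.84 CPM (log2 fold change -1.30, edgeR adjusted p = 0.00044), and is listed at 0 in all spiny mouse samples, as is the lymphatic chemokine Ccl21a. Whether these values of 0 come from expression or from the gene models and counting was not tested. General leukocyte genes moved the same way: 4 of 7 rose and none fell in spiny mouse, and none rose and 4 fell in mouse. Their summed level was 322 to 387 CPM untreated and 525 to 764 CPM treated in spiny mouse, and 234.0 to 459 CPM untreated and 195 to 265 CPM treated in mouse. Their part in the selectin and capture values was not tested.

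**Figure D4:**
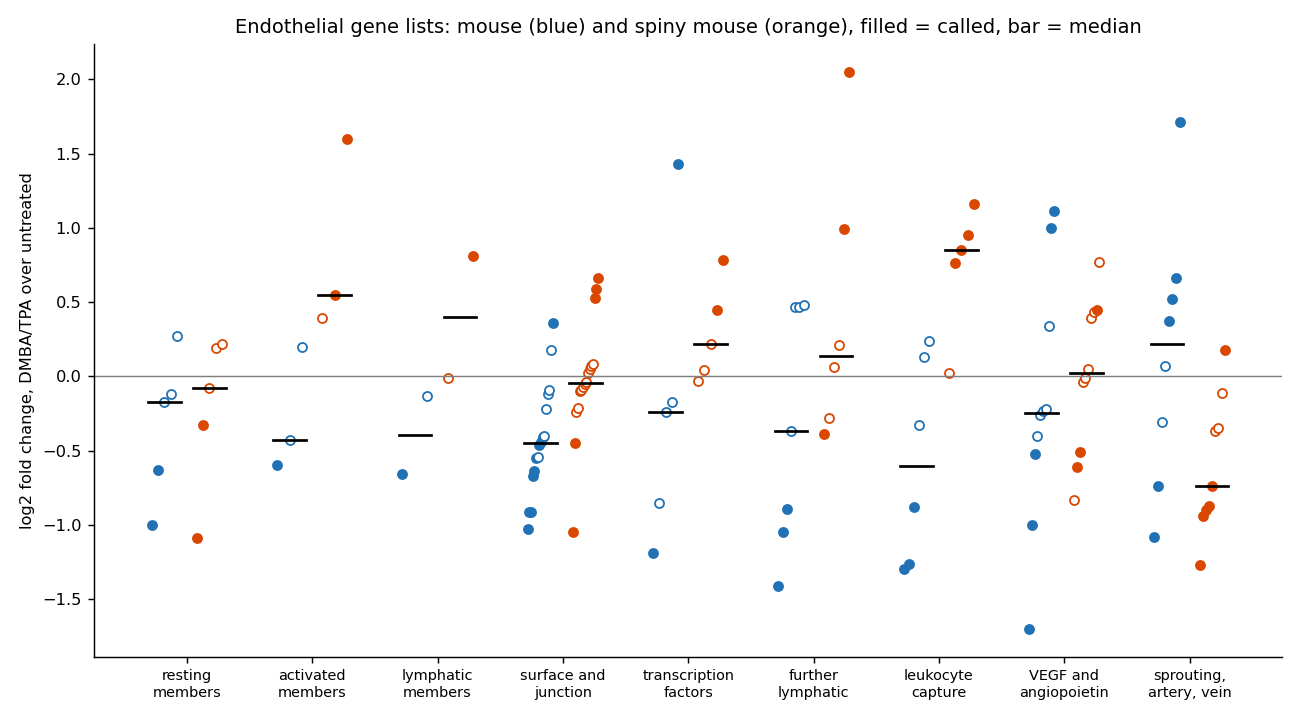
Log2 fold change of every tested gene in the member groups and the 6 related lists, mouse in blue and spiny mouse in orange, filled where called, with the median as a bar. The leukocyte-capture list has a median of 0.85 in spiny mouse and -0.61 in mouse, and the sprouting, arterial and venous list has -0.74 and 0.22.

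The further lymphatic genes were 0 higher and 3 lower of 7 in mouse (median -0.37), and 2 higher and 1 lower of 6 in spiny mouse (median 0.13). In mouse they were 1 higher and 3 lower without untreated replicate 2 (median -0.23), and 2 higher and 2 lower with endothelial scaling (median 0.06). Reln, a glycoprotein secreted by lymphatic endothelium, fell in both species, by 1.41 on the log2 scale in mouse (edgeR adjusted p = 0.00031) and by 0.39 in spiny mouse (edgeR adjusted p = 0.038). Pdpn, which encodes podoplanin, rose in spiny mouse from between 15.2 and 20.9 CPM to between 55.3 and 108.2 CPM, a log2 fold change of 2.05 ± 0.22 (edgeR adjusted p = 8.7e-05). Podoplanin is also made by keratinocytes and fibroblasts, and of 6 keratinocyte genes 3 rose and 1 fell in each species; their part in the Pdpn values was not tested.

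Among the 5 endothelial transcription factors the called members moved singly. Sox7 rose in both species, by 1.43 on the log2 scale in mouse (edgeR adjusted p = 5.9e-05) and 0.45 in spiny mouse (edgeR adjusted p = 0.026), and its response was smaller in spiny mouse (difference -0.98, edgeR adjusted p = 0.0016). Sox17, of arterial endothelium, fell by 1.19 on the log2 scale in mouse (edgeR adjusted p = 0.0026) and gave 0.04 in spiny mouse. Erg, a pan-endothelial ETS factor, rose by 0.78 in spiny mouse, from between 8.96 and 10.8 CPM to between 14.9 and 17.9 CPM (edgeR adjusted p = 0.00016), and gave -0.17 in mouse.

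The 10 VEGF and angiopoietin ligands and co-receptors were 2 higher and 3 lower in mouse, and 1 higher and 2 lower in spiny mouse. Vegfa, the main ligand of the Kdr product, was called in neither species, with log2 fold changes of -0.23 in mouse and 0.05 in spiny mouse. Vegfb, a ligand of the Flt1 product, fell in both, by 1.0 on the log2 scale in mouse (edgeR adjusted p = 0.00015) and 0.51 in spiny mouse (edgeR adjusted p = 0.0088). Pgf, another Flt1 ligand, rose in mouse (1.11, edgeR adjusted p = 0.034) and in spiny mouse gave 0.77, where treated replicate 4 at 11.7 CPM stood above the other 3 at 1.46 to 2.27 CPM.

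Vegfc, the ligand of the Flt4 product, rose in spiny mouse together with its receptor, from 6.09, 5.31, 5.21 and 5.26 CPM to 6.91, 7.72, 6.81 and 8.45 CPM. The groups did not overlap, and the log2 fold change was 0.45 ± 0.11 (edgeR adjusted p = 0.0088) against -0.40 in mouse, where it was not called. Vegfd, which binds the same receptor, was called in neither (-0.26 in mouse, 0.39 in spiny mouse). Angpt1, the activating ligand of Tie2, fell in both species, in mouse from 14.7, 10.2, 16.4 and 12.6 CPM to 4.04, 4.53, 4.04 and 4.05 CPM. Its log2 fold change was -1.70 ± 0.17 in mouse (edgeR adjusted p = 5.4e-05) and -0.61 ± 0.14 in spiny mouse (edgeR adjusted p = 0.0054). Angpt2, the context-dependent Tie2 ligand, was called in neither (-0.22 and 0.43), nor was Angpt4 (0.34 and -0.83). Of the VEGF co-receptors in mouse, Nrp1 fell (-0.52, edgeR adjusted p = 0.0018) and Nrp2 rose (1.0, edgeR adjusted p = 0.0016), and in spiny mouse both were near 0 (-0.04 and -0.01).

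Of the sprouting, arterial and venous genes, in mouse 4 rose and 2 fell of 8 tested (median 0.22), in spiny mouse 1 rose and 5 fell of 9 (median -0.74), and the difference was smaller in spiny mouse for 4 of 8. Unc5b, a netrin receptor of arteries and sprouting vessels, rose by 1.71 on the log2 scale in mouse (edgeR adjusted p = 2.1e-05) and fell by 0.90 in spiny mouse (edgeR adjusted p = 0.0051), a difference of -2.61. Spiny mouse levels were 159.6, 175.3, 108.4 and 117.8 CPM untreated and 68.5, 54.5, 99.4 and 79.3 CPM treated. In those samples the inner root sheath keratins summed to 7237, 8512, 813.4 and 2497.5 CPM untreated and 173.9, 151.1, 2427.3 and 898.9 CPM treated. In untreated mouse skin Unc5b was highest, at 70.7 CPM, in replicate 2, where those keratins summed to 1586 CPM. Their part in the Unc5b values was not tested. Pdgfb, with which endothelium recruits pericytes, fell in both, by 1.08 and 0.94 on the log2 scale. Esm1, a marker of VEGF-stimulated tip cells, fell in spiny mouse by 1.27 on the log2 scale (edgeR adjusted p = 0.0018) and was too low in mouse to be tested. Ephb4, the venous ephrin receptor, rose slightly in spiny mouse (0.18, edgeR adjusted p = 0.036).

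The genes whose pattern over the 16 samples was nearest to 3 of the members were found by root-mean-square distance of log2 CPM, centred within each species, over 12794 genes. Nearest to Cdh5 were Fam117a, Numbl, Adgra2, LTO1 and Tmem161a, at 0.0998 to 0.113, against a median of 0.366 over all genes. Nearest to Sele were Cd80, Stambpl1, Pde7a, Kif18a and Mest, at 0.310 to 0.327 (median 0.722), and among the members Flt4 (0.482) and Vwf (0.484) came closest. Nearest to Flt4 were Erg, Mvp, Sh3bp2, Rin1 and Mst1r, at 0.181 to 0.199 (median 0.472), and Pecam1 was the closest member at 0.301. No member was among the 5 genes nearest to any of these 3, and of the listed vascular genes only Erg, beside Flt4, was among the 15.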

How the data were processed

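Raw fragment counts per gene were used, which the authors deposited as 1 table for each species. Per the file headers, featureCounts 2.0.3 counted read pairs with both ends mapped, on GRCm39 with Ensembl 108 (mouse) and on AcoCah2 (spiny mouse), without a strand option. Selp and Prox1 overlap antisense mouse genes of at most 1.1 counts on average. Trimming with Trim Galore and alignment with HISAT2 are named in the submitters' processing notes. Untreated columns carry a code other than the library names of the labels, and were matched by species letter and replicate number. Library totals ran from 19608787 to 30561256 counts, so that 3 counts equal 0.102 to 0.158 CPM; this covers counting error only. The labels do not say that replicates were separate animals, so p-values measure the spread between samples, which may be technical.

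Counts were filtered (filterByExpr), TMM-scaled and tested within each species with edgeR 4.0.16 in R 4.3.3 (quasi-likelihood, Benjamini-Hochberg adjustment over all genes). The steps were checked on simulated counts with few genes changed, as many up as down, which cannot check the choice of scaling. The species difference is the interaction term over symbols found once in each table. Alternatives were DESeq2 1.42.0, other scalings, no filter, limma-voom (limma 3.58.1) with sample weights, a replicate block and leaving out each library. Members, lists and tests were chosen with earlier results of these data known. Besides members and ligands, the text names the largest called rise and fall of each other list per species, and the 5 genes nearest to Cdh5, Sele and Flt4. Distances use a prior count of 2 and genes with a mean log2 CPM of at least 0. A gene of the leukocyte-capture list is not reported here.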

Additional observations from a re-analysis of the deposited data

Results flagged for a closer look

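Differences between the species' responses were tested as an interaction in edgeR, and those called are given as spiny mouse minus mouse on the log2 scale. Among the members they were 0.39 for Pecam1, 0.55 for Tek, 1.15 for Vwf, 2.03 for Sele, 0.65 for Prox1 and 0.94 for Flt4. Among the ligands and co-receptors they were 0.50 for Vegfb, 0.85 for Vegfc, 1.08 for Angpt1, 0.48 for Nrp1 and -1.01 for Nrp2. Among the other named genes they were 0.47 for Eng, -0.98 for Sox7, 1.22 for Sox17, 0.95 for Erg, 1.02 for Reln, 1.58 for Pdpn, 1.03 for Icam1 and -2.61 for Unc5b.

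In 14 of 136 groups of 4 samples, 1 sample lay far from the other 3 by Dixon's test; chance gives about 1 in 20. Untreated mouse replicate 2 was the high sample for Vwf (76.3 CPM), Angpt2 (8.77 CPM) and Nrp2 (100.2 CPM), and untreated mouse replicate 3 the low one for Vegfb (17.4 CPM). In treated mouse skin the samples apart were replicate 3 for Vwf (36.6 CPM) and Ackr1 (4.84 CPM), replicate 2 for Angpt1 (4.53 CPM), replicate 1 for Nrp1 (33.1 CPM) and Sox17 (1.84 CPM), and replicate 4 for Reln (17.2 CPM). In spiny mouse they were treated replicate 1 for Flt4 (31.8 CPM), untreated replicate 1 for Vegfc (6.09 CPM), and treated replicate 4 for Pgf (11.7 CPM) and Pdpn (108.2 CPM).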

How the results depend on the processing

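Of the 560 comparisons of a member's main value with an alternative, 486 kept direction and side of the threshold, 34 lost a call, 16 gained one and 24 changed sign. Kdr in both species, Cdh5, Vwf, Sele and Flt4 in spiny mouse, and the Vwf and Sele differences kept their calls in every alternative. Mouse members called went from 4 to 7 with upper-quartile factors and to 7 with library size alone, which called Pecam1, Cdh5 and Sele lower and shifted the median of all mouse genes by -0.20 and -0.24. Called species differences went from 6 to 3 with no low-count filter. The share of higher calls in mouse, 42.4%, became 30.5% and 28.6% with those factors and 65.2% with endothelial scaling, which shifted the median by 0.44; for the species difference 46.4% became 61.2%, 66.2%, 18.7% and, with no filter, 36.3%. Without division by length the highest over lowest member was 15.1, 18.1, 25.6 and 22.7-fold in untreated and treated mouse and untreated and treated spiny mouse.

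Replicate numbers recur in every group, but same-numbered samples did not deviate together (mean correlation 0.0094 in mouse and -0.355 in spiny mouse, 0 of 4 best with their own number). The replicate block gave 11246, 7418 and 5723 called genes against 12085, 8180 and 6290, called Pecam1 in spiny mouse (0.22) and lost the Prox1 difference (0.67); it also changed the sign of the Egfl7 difference (0.01).

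Signs changed as follows, with 1 of them, the Pecam1 difference, called in the reported analysis. With endothelial scaling the mouse values were Pecam1 0.26, Cdh5 0.31, Sele 0.02, Flt4 0.28, Vegfa 0.22, Vegfc 0.03, Vegfd 0.17, Angpt2 0.16 and Erg 0.24, spiny mouse Nrp2 0.01, and the differences Pecam1 -0.03, Selp -0.22, Vegfa -0.15, Plvap -0.25, Pdgfb -0.28 and Ephb4 -0.30. With upper-quartile factors and library size alone, mouse Selp was -0.0035 and -0.04, Eng -0.02 and -0.06, Ephb4 -0.14 and -0.17, Icam1 -0.07 and -0.10, and the differences Kdr 0.07 and 0.13, Flt1 0.09 and 0.15 and Egfl7 0.15 and 0.21; spiny mouse Sox17 was -0.0017 with the first, and the Cdh5 difference 0.003 with the second. With no filter, mouse Cdh5 was 0.03 and Flt4 0.02, spiny mouse Prox1 0.01 and Nrp2 0.01, and the Ephb4 difference -0.02. Limma-voom gave 0.02 for Prox1 in spiny mouse. Leaving out 1 library gave ranges in mouse of -0.33 to 0.04 (Flt4), -0.31 to 0.05 (Vegfa) and -0.43 to 0.04 (Angpt2); in spiny mouse of -0.13 to 0.002 (Tek), -0.10 to 0.06 (Prox1), -0.05 to 0.21 (Vegfa), -0.43 to 1.06 (Pgf), -0.09 to 0.02 (Nrp1), -0.05 to 0.08 (Nrp2) and -0.06 to 0.19 (Sox17); and in the difference of -0.00091 to 0.44 (Vegfa), -1.54 to 0.03 (Pgf), -0.19 to 0.17 (Egfl7) and -0.00099 to 0.15 (Ephb4). The cause was not tested. Of the 5 genes nearest to Cdh5, Sele and Flt4, 3, 2 and 4 stayed without untreated mouse replicate 2.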
